A study of Mus musculus with 23 samples.

Results

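The genes described here encode 8 regulators of nuclear genes for mitochondrial proteins: Nrf1, Gabpa, Gabpb1, Gabpb2, Ppargc1b, Pprc1, Esrra and Ppard. They were taken by gene symbol from the 37310 rows of each RNA-seq count file, where each symbol matched 1 row. Their promoters, from 2 kb upstream to 500 bases downstream of the annotated gene start, were then searched for Zbtb11 ChIP-seq peaks.

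RNA-seq was performed in mouse embryonic stem cells (ESCs) of the E14 line in 3 groups of 3 libraries. EtOH control and Zbtb11 KO libraries came from one line, Zbtb11lox/lox with ERt2-Cre at Rosa26, in which 4-hydroxytamoxifen (4OHT) activates a Cre recombinase that deletes a loxP-flanked exon of Zbtb11. It received the ethanol carrier or 250 nM 4OHT, respectively, for 48 h. 4OHT control libraries came from Zbtb11WT/WT Rosa26WT cells, without Cre, treated with 250 nM 4OHT for 48 h. Line and drug thus both separate this group from the EtOH control, and line and genotype separate it from the Zbtb11 KO. Between 14301457 and 23876604 reads were counted on genes per library. Zbtb11 is a zinc finger protein of the ZBTB family, and its binding was mapped with a Zbtb11 antibody in wild-type cells (4 libraries) and with a FLAG antibody in cells whose Zbtb11 alleles carry a FLAG tag (3 libraries), with 2 FLAG control libraries from untagged cells. No row of the count files is named Zbtb11. The RefSeq table (GRCm38.p6) places Zbtb11 between Rpl24 and Pcnp, and over that place GENCODE vM1 has 1 gene on the plus strand, Rpl24 (ENSMUSG00000022601.9, chr16:55966388-56009026, mm9), which runs as far as Pcnp. That row may therefore hold the reads of both Rpl24 and Zbtb11. It differed by -0.04 on the log2 scale between Zbtb11 KO and EtOH control (edgeR adjusted p = 1), and the deletion was not checked separately here. A row that may hold both genes cannot gauge the loss of 1 Zbtb11 exon. The paper itself reports efficient deletion of the exon and loss of functional Zbtb11 transcripts after 4OHT. By ChIP-qPCR it found almost no Zbtb11 signal left at 48 h.

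NRF-1, the product of Nrf1, and GABP, also called NRF-2, bind the promoters of many nuclear genes for respiratory chain subunits and for the machinery that copies and transcribes mitochondrial DNA. GABP is built of an ETS-domain DNA-binding subunit, encoded by Gabpa, and a partner with the activating domain, encoded by Gabpb1 or Gabpb2. The PGC-1 family, to which Ppargc1b and Pprc1 belong, are coactivators that do not bind DNA on their own and act through NRF-1, GABP and nuclear receptors. Esrra encodes the oestrogen-related receptor ERRα and Ppard the lipid-activated receptor PPARδ. The comparisons below ask whether the mRNA level of any of them moved when Zbtb11 was deleted, and whether Zbtb11 was bound at their promoters.

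All 8 genes passed the expression filter of more than 1 CPM (read counts scaled to a common library total) in at least 3 libraries, among 14346 genes tested. No regulator passed the threshold in Zbtb11 KO against EtOH control (edgeR quasi-likelihood test, adjusted p under 0.05), where 0.899% of all tested genes did. At an unadjusted p under 0.05 the count was also 0 of 8, and the share of all tested genes at that cutoff was not counted. DESeq2 called 0 of 8 beside 1.25% of all tested genes, and the fit with the replicate number as a block 0 of 8 beside 2.25%. At an unadjusted p under 0.05 the block fit held 1 of 8 (Ppard), again without a counted share of all tested genes. The 8 log2 fold changes lay between -0.07 and 0.18 with a median of 0.02, beside a median of -0.00 over all tested genes. The paper describes its high-confidence Zbtb11 peaks as those shared by the antibody and FLAG lists. Peaks of this set lay at the promoters of 3 of the 8 genes (Gabpa, Gabpb1 and Pprc1), against 28.1% of all tested genes.

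Levels of different genes were compared as TMM-normalised CPM per kilobase of the union of annotated exons. In EtOH control Pprc1 stood highest at 41.2 ± 4.90 (SD, n = 3), followed by Gabpa at 31.6 ± 1.42, and the lowest of the 9 Pprc1 libraries lay above the highest Gabpa library. Next came a group of 5 genes in which each overlapped its neighbour over the 9 libraries. In order these were Esrra at 6.54 ± 0.115, Nrf1 at 6.35 ± 1.08, Gabpb1 at 5.83 ± 0.176, Ppard at 5.51 ± 1.08 and Gabpb2 at 5.36 ± 0.522. Ppargc1b was lowest at 2.41 ± 0.674, below every library of Gabpb2. Among 13351 protein-coding genes tested, Pprc1 stood at the 90.2 percentile of this level, Gabpa at 86.7 and Ppargc1b at 29.3, with the other genes between 46.6 and 51.9. With the length of the longest transcript in place of the union, Pprc1, Gabpa and Ppargc1b kept their places, whereas Nrf1 came directly after Gabpa and Esrra directly before Ppargc1b.

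**Figure D1:**
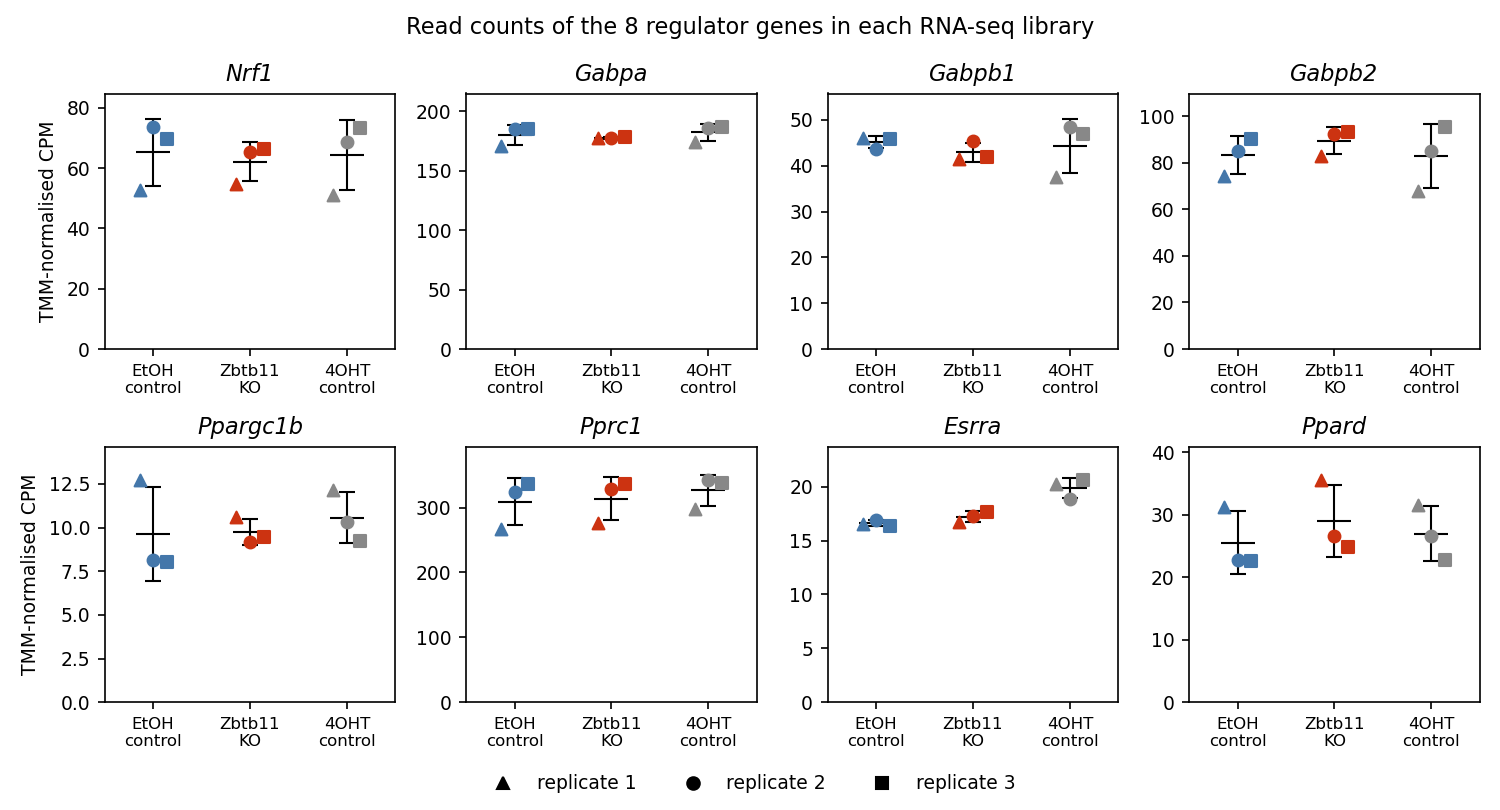
TMM-normalised CPM (y axis, from 0, a separate scale for each gene) of the 8 regulator genes in the 3 groups (x axis). Each symbol is 1 library, its shape gives the replicate number, and the horizontal line and bars are the mean and SD of 3 libraries. Esrra is the gene whose 4OHT control libraries all lie above the other 6, and the replicate 1 libraries (triangles) stand apart for Nrf1, Gabpb2, Ppargc1b, Pprc1 and Ppard.

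Nrf1 (ENSMUSG00000058440.7, chr6:29997988-30103458, plus strand, mm9) encodes the DNA-binding activator NRF-1. It was read at 52.6, 73.7 and 69.5 CPM in EtOH control replicates 1 to 3, at 54.7, 65.4 and 66.2 in Zbtb11 KO and at 51.1, 68.5 and 73.4 in 4OHT control. The groups overlapped, and in each the library of replicate 1 was the lowest. Zbtb11 KO differed from EtOH control by -0.07 on the log2 scale (95% interval -0.45 to 0.30). No peak of either Zbtb11 list and no peak of the coverage table lay within 5 kb of the gene. The 300 bases around its start, 250 before and 50 after, held none of the 7 motifs searched. Nrf1 is a different gene from Nfe2l1 and Nfe2l2, whose proteins share the abbreviations NRF1 and NRF2; these differed by -0.09 (SE 0.08) and 0.00 (SE 0.10) on the log2 scale in the same comparison.

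Gabpa (ENSMUSG00000008976.9, chr16:84835170-84864024, plus strand) varied little in level. CPM was 171, 185 and 185 in EtOH control, 177, 178 and 178 in Zbtb11 KO, and 174, 186 and 187 in 4OHT control. The Zbtb11 KO values lay inside the range of the EtOH control. The log2 fold change of Zbtb11 KO over EtOH control was -0.02, with a 95% interval from -0.17 to 0.13 that corresponds to -11.02% to 9.56%.

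Its promoter carried a strong Zbtb11 peak. The high-confidence peak chr16:84834623-84835823 had a normalised coverage of 543.5, 644.4, 546.1 and 620.9 in the 4 Zbtb11 antibody libraries (588.7 ± 51.6, SD) and of 620.6, 691.6 and 443.0 in the 3 FLAG-Zbtb11 libraries. It ranked 362 of 7500 peaks by the antibody mean and stood 8.25 times above the median peak. Peaks whose antibody mean exceeds 308.9, the upper quartile plus 1.5 times the interquartile range, are called Zbtb11-high here, and 857 peaks were above that limit. The nearest values on either side of the limit were 309.1 and 308.7. The centre of the Gabpa peak lay 53 bases after the annotated start, where a first exon of Gabpa and exons of Atp5j overlap.

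Atp5j, which encodes a subunit of the ATP synthase, is transcribed from the opposite strand and has annotated transcript starts inside the same peak, so the peak lies at both promoters. The 2 genes share 397 exonic bases, and the strand setting of the read counting was not given in the sources used here. Atp5j differed by -0.06 (SE 0.09) on the log2 scale between Zbtb11 KO and EtOH control (adjusted p = 1). Of 417 tested genes with a promoter peak ranked as high as that of Gabpa or higher, 84 were called lower in Zbtb11 KO (20.1%) and 8 higher (1.92%). Gabpa and Atp5j were among those called in neither direction.

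The peak centre held matches to the GABP motif. CCGGAAG, the core letters of the site that GABP and other ETS proteins recognise, occurred at 2 places within the 300 bases at the centre, both reading on the minus strand. Of the central 300 bases of all high-confidence peaks 29.4% held CCGGAAG on either strand, as did 47.8% of Zbtb11-high peaks and 16.5% of the 300-base promoters of 9136 tested protein-coding genes. Each match is shown in 30 bases of the minus strand of mm9, with the searched motifs in capitals. The first (chr16:84835093-84835122) lies in an annotated 5′ untranslated exon of Atp5j, and the second (chr16:84835255-84835284) spans the end of the first exon of Gabpa. The second also holds GGAAGTG, another ETS motif, on the other strand.
Gabpa site 1: gcggagccagggCCGGAAGtagaacggtgg
Gabpa site 2: acCCGGAAGcacttaccctcCACTTCCtcc

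Gabpb1 (ENSMUSG00000027361.8, chr2:126453178-126502073, minus strand), which encodes the main activating partner GABPβ1, was read at 46.1, 43.6 and 45.8 CPM in EtOH control, at 41.4, 45.4 and 41.9 in Zbtb11 KO and at 37.5, 48.5 and 46.9 in 4OHT control. The 3 groups overlapped. Zbtb11 KO differed from EtOH control by -0.07 on the log2 scale (95% interval -0.31 to 0.16). A stretch of 205 bases of its longest coding transcript, 4.94% of the length, has a copy of at least 95% identity elsewhere in the genome.

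The peak chr2:126500641-126501841 covered a cluster of Gabpb1 transcript starts, with its centre 63 bases after the start of the transcript numbered 001. Antibody coverage was 253.4, 286.9, 314.8 and 349.5 (301.2 ± 40.8), and FLAG coverage 229.5, 283.7 and 273.5. The antibody mean ranked 877 and fell just short of the limit for a Zbtb11-high peak, whereas the FLAG mean of 262.2 was above the limit of 260.5 computed in the same way from the FLAG libraries. No CCGGAAG was found at the centre of this peak. The 250 bases upstream of the start cluster (chr2:126501329-126501578, minus strand, mm9) are shown because they lie under the peak, with the 5 letters CGGAA, the ETS core with its preceding C, in capitals on either strand. CGGAA was found in 46.8% of the 300-base promoters and in 63.5% of peak centres.
Gabpb1 upstream: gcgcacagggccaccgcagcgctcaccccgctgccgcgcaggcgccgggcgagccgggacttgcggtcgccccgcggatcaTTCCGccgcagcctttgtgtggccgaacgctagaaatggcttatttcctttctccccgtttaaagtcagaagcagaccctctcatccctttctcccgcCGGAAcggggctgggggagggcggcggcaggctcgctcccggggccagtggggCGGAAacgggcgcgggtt

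Gabpb2 (ENSMUSG00000038766.9, chr3:94985688-95021864, minus strand) encodes the second partner, GABPβ2. Its CPM was 74.4, 84.9 and 90.4 in EtOH control, 83.0, 92.3 and 93.2 in Zbtb11 KO, and 68.0, 85.2 and 95.4 in 4OHT control. In Zbtb11 KO it was higher than in the EtOH control of the same number in 3 of 3 replicates, by 0.16, 0.12 and 0.04 on the log2 scale, although the groups overlapped. All 3 replicates went one way for 4 of the 8 regulators in this comparison, beside 35.9% of all tested genes. In 4OHT control against EtOH control and in Zbtb11 KO against 4OHT control they did so for 4 and 2 of 8, beside 57.2% of all tested genes in each. The fitted difference was 0.10 (95% interval -0.19 to 0.40). In its longest transcript 176 bases (2.03%) had copies of at least 95% identity, with 4681 matches at other places in the genome.

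Zbtb11 peaks at the Gabpb2 start were called in both single lists, at chr3:95020974-95022655 with the antibody and chr3:95021049-95022728 with FLAG, whereas the high-confidence set held none there. Gabpb2 was thus the one regulator gained when all peaks of either list were counted, making 4 of 8 beside 33% of tested genes for the antibody list and 33.5% for the FLAG list. The antibody and FLAG peaks at Gabpb2 overlap each other, although the paper describes the high-confidence set as the peaks shared by both lists. Why the set lacks Gabpb2 was not tested, so its absence there does not mean that the peak was unconfirmed. No FLAG control peak lay at any of the 8 promoters, beside 0.216% of tested genes. Gm16740, a noncoding RNA of the opposite strand, shares this promoter and 402 exonic bases with Gabpb2. It stayed between 0.834 and 1.57 CPM in all 9 libraries.

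A CCGGAAG match lay within the central 300 bases of the antibody peak, in an untranslated part of the first exon of Gabpb2, and was followed by TG so that CCGGAAG and GGAAGTG overlapped. It is shown in 30 bases of the plus strand (chr3:95021674-95021703, mm9), the strand opposite to Gabpb2.
Gabpb2 site: aaatggcggacCCGGAAGTGaaggcgctgt

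The ratio of the GABP subunits overlapped between all groups. Gabpa divided by the sum of Gabpb1 and Gabpb2, each in CPM per kilobase, was 2.83 ± 0.0854 in EtOH control, 2.77 ± 0.133 in Zbtb11 KO and 2.93 ± 0.341 in 4OHT control (SD, n = 3). With the longest transcript as length the ratios were 1.76 ± 0.0539, 1.73 ± 0.0824 and 1.83 ± 0.211, so the value depends on the length used, while the groups overlapped with either. An exact permutation test of Zbtb11 KO against EtOH control gave a two-sided p of 0.4 with either length, where the smallest p that 3 against 3 libraries allow is 0.1.

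Ppargc1b (ENSMUSG00000033871.8, chr18:61457790-61560085, minus strand) encodes the coactivator PGC-1β and was the least abundant of the 8, with 173 to 244 reads a library. CPM was 12.7, 8.13 and 8.003 in EtOH control, 10.6, 9.16 and 9.49 in Zbtb11 KO, and 12.1, 10.3 and 9.24 in 4OHT control. In each group replicate 1 was the highest. The difference between Zbtb11 KO and EtOH control was 0.02 (95% interval -0.43 to 0.47), and a change of up to 38.4% higher or 25.6% lower was within this interval. No Zbtb11 peak lay within 5 kb of the gene. Its relative Ppargc1a, which encodes PGC-1α, had at most 2 reads in any library and was not tested.

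Pprc1 (ENSMUSG00000055491.7, chr19:46119376-46147405, plus strand) encodes PRC, the PGC-1-related coactivator that responds to growth signals in dividing cells. CPM was 267, 324 and 336 in EtOH control, 276, 329 and 336 in Zbtb11 KO, and 299, 342 and 338 in 4OHT control. Replicate 1 was again apart, as the lowest library of each group. Zbtb11 KO exceeded EtOH control by 0.02 on the log2 scale (95% interval -0.24 to 0.28).

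Pprc1 carried 2 high-confidence peaks. The first, chr19:46119030-46120230, lay at the outermost annotated start, that of a noncoding transcript, where Ldb1 starts on the opposite strand. Its coverage was 68.9, 109.0, 115.0 and 166.8 with the antibody (114.9 ± 40.2) and 140.9, 138.9 and 112.7 with FLAG, and it ranked 2368. The second, chr19:46130472-46131672, lay 11696 bases into the gene with its centre 43 bases after the start of coding transcript 001. There the antibody gave 168.9, 336.6, 279.1 and 257.2 (260.5 ± 69.6) and FLAG 64.9, 58.5 and 74.7 (66.0 ± 8.18).

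At this second peak the antibody and FLAG libraries did not overlap. The antibody mean was 3.94 times the FLAG mean, beside a median ratio of 1.02 over all peaks, and the peak ranked 114 of 7500 by this ratio. The exact permutation p was 0.0286 (two-sided), the smallest that 4 against 3 libraries allow, and 0.143 after adjustment over the 5 peaks at these genes. At the other 4 peaks the exact permutation p before adjustment lay between 0.0857 and 0.914. The 2 kinds of library differ in both the cells and the antibody, whose parts in this difference cannot be told apart. The stretch of 250 bases before the coding transcripts (chr19:46130779-46131028, plus strand, mm9) lacked the ETS and NRF-1 motifs searched. It is shown with CTACAATTC, part of the motif bound by Zfp143 and Thap11, in capitals. These letters were chosen after the sequence was seen, and were found in 0.635% of the 300-base promoters and in 0.547% of peak centres. The match lay outside the central 300 bases of this peak, which held no CTACAATTC.
Pprc1 upstream: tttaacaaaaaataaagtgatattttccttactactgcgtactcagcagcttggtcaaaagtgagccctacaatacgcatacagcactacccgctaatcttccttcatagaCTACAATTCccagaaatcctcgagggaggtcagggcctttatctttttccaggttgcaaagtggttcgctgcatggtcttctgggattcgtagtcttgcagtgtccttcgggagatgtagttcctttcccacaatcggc

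Ldb1 encodes an adaptor of LIM-domain proteins. It was higher in 4OHT control than in EtOH control by 0.40 (SE 0.07, adjusted p = 0.0144) and lower in Zbtb11 KO than in 4OHT control (-0.49, SE 0.07, adjusted p = 0.00296), with -0.08 between Zbtb11 KO and EtOH control. The 2 genes share 177 exonic bases.

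Esrra (ENSMUSG00000024955.7, chr19:6985467-6996303, minus strand) was the one regulator whose groups separated. CPM was 16.5, 16.9 and 16.4 in EtOH control, 16.7, 17.3 and 17.7 in Zbtb11 KO, and 20.2, 18.9 and 20.6 in 4OHT control. All 3 libraries of the 4OHT control lay above the other 6, and those of EtOH control and Zbtb11 KO overlapped. Of all tested genes, 21.7% did not overlap between 4OHT control and EtOH control, and 22.9% between Zbtb11 KO and 4OHT control. The share with the 4OHT control above both other groups was not counted. The 4OHT control exceeded EtOH control by 0.26 on the log2 scale (95% interval 0.07 to 0.46), and Zbtb11 KO was -0.21 from the 4OHT control (95% interval -0.40 to -0.01). Neither passed the threshold without the replicate block (unadjusted p = 0.0143 and 0.0383, adjusted p = 0.144 and 0.224, edgeR). With the replicate number as a block the first did, at adjusted p = 0.0168, in a fit that called 33.6% of all tested genes, and the second stood at 0.0522 beside 34.9%. DESeq2 gave adjusted p = 0.0964 for the first. Both comparisons share the 4OHT control libraries. The 4OHT control differs from the other groups in cell line genotype, and from the EtOH control also in 4OHT, and these cannot be told apart.

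Between Zbtb11 KO and EtOH control, which share their genotype before 4OHT, Esrra differed by 0.05 (95% interval -0.14 to 0.25). No Zbtb11 peak lay at its promoter. Peaks of both lists (chr19:6983316-6985337 with the antibody and chr19:6983522-6985320 with FLAG) lay beyond its 3′ end at the starts of Trmt112 and Prdx5, with centres 11977 and 11882 bases from the Esrra start. Of the 7 motifs, TGCGCA, a partial NRF-1 site, was found 1 time near the Esrra start, as it was in 13.8% of all promoters. Esrra shares 73 exonic bases with Trmt112.

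Ppard (ENSMUSG00000002250.9, chr17:28369699-28438414, plus strand) had the largest fold change of the 8 in Zbtb11 KO against EtOH control. CPM was 31.3, 22.7 and 22.6 in EtOH control, 35.6, 26.6 and 24.8 in Zbtb11 KO, and 31.6, 26.6 and 22.8 in 4OHT control. Replicate by replicate Zbtb11 KO was above EtOH control in 3 of 3, by 0.18, 0.23 and 0.14 on the log2 scale. The fitted difference was 0.18 (95% interval -0.25 to 0.61, adjusted p = 1). With the replicate block the interval narrowed to 0.03 to 0.33 (unadjusted p = 0.0192, adjusted p = 0.338), so the call did not change.

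Ppard had no promoter peak, but a strong one inside the gene. The peak chr17:28399702-28400902, in an intron 30603 bases from the start and outside any annotated exon, had antibody coverage of 383.5, 468.1, 325.7 and 486.1 (415.8 ± 74.9) and FLAG coverage of 338.8, 308.5 and 198.3. It ranked 580 and was Zbtb11-high with either set of libraries. None of the 7 motifs was found in its central 300 bases, although 85.5% of Zbtb11-high peaks held CGGAA there. The centres of both Pprc1 peaks, which were not Zbtb11-high, also held none of the 7.

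Those 300 bases (chr17:28400153-28400452, plus strand, mm9) are shown because they lie in an intron, outside the promoters searched. Capitals mark the longest run that occurs 2 times, of 18 bases, with its copies 54 bases apart. Within this window 138 bases had matches of at least 90% identity over 100 bases or more at 1724 other places in the genome, and the authors kept uniquely aligned reads.
Ppard intron: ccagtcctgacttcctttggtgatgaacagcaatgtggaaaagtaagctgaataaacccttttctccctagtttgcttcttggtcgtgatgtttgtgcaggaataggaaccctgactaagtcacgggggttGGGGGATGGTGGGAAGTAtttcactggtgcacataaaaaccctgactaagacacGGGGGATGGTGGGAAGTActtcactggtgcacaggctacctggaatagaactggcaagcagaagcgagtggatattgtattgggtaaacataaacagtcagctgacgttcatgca

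**Figure D2:**
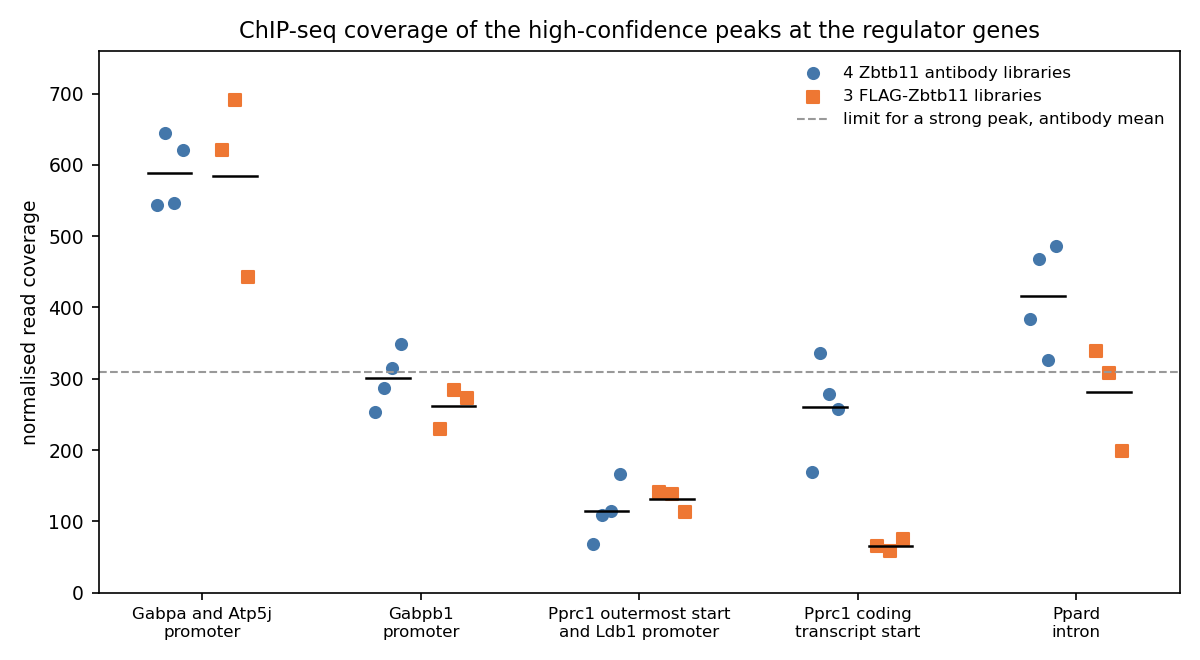
Normalised read coverage (y axis, from 0) of the 5 high-confidence Zbtb11 peaks at the regulator genes (x axis) in 4 antibody and 3 FLAG-Zbtb11 libraries. Each symbol is 1 library, short lines are means and the dashed line is the Zbtb11-high limit of 308.9. The Gabpa peak is the highest in both kinds of library, and the 2 kinds do not overlap at the Pprc1 coding start.

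**Figure D3:**
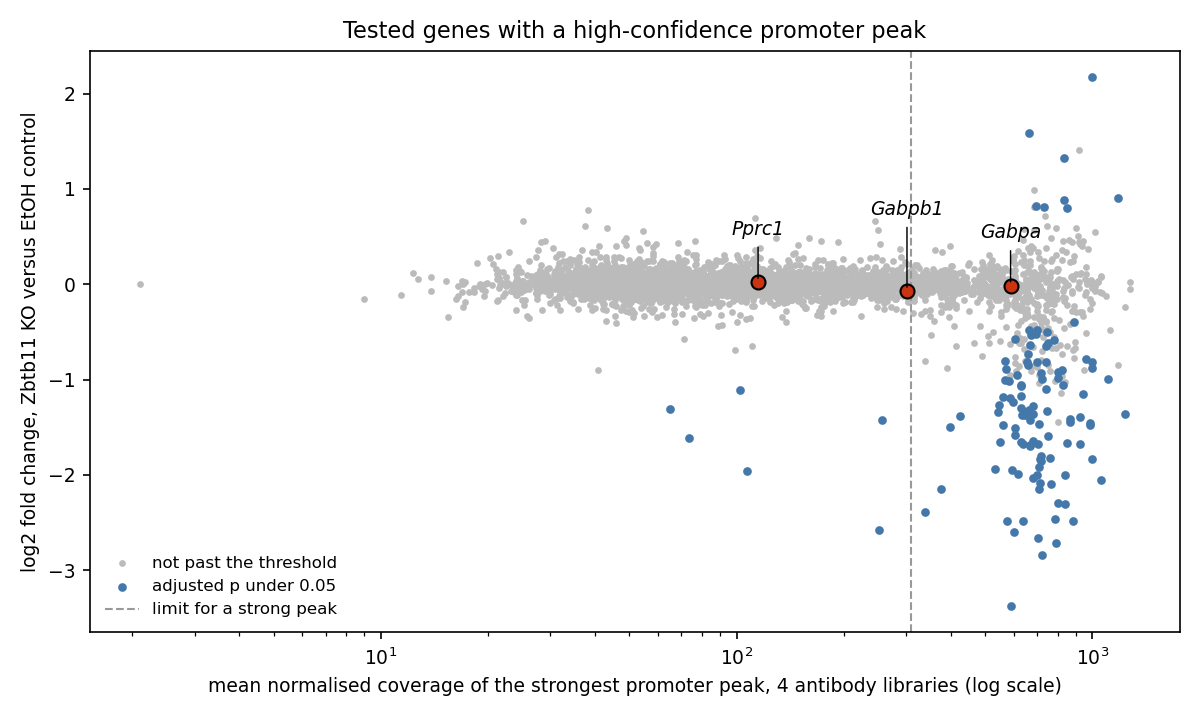
Log2 fold change of Zbtb11 KO over EtOH control (y axis) against the mean antibody coverage of the strongest promoter peak (x axis, log scale) for 4026 tested genes with a high-confidence promoter peak. Each point is 1 gene, blue points passed the threshold, and the dashed line is the Zbtb11-high limit. Gabpa, Gabpb1 and Pprc1 (red, the last with the peak at its outermost start) lie at a log2 fold change near 0, Gabpa in the range of coverage where most of the called genes stand.

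Over the 8 genes the promoter peaks and the expression values can be set beside those of all tested genes. Among 817 tested genes with a Zbtb11-high promoter peak 12.4% were called lower in Zbtb11 KO, and among 3209 with a weaker high-confidence peak 0.187% were. Of the 3 regulators with a promoter peak Gabpa belonged to the first class and Gabpb1 and Pprc1 to the second.

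In the other 2 comparisons, which share libraries with the first and with each other, the regulators other than Esrra stayed within -0.12 to 0.14 on the log2 scale. Between 4OHT control and EtOH control 0 of 8 passed the threshold in edgeR and in DESeq2, beside 4.06% and 8.27% of all tested genes, with 1 of 8 (Esrra) at an unadjusted p under 0.05. Between Zbtb11 KO and 4OHT control 0 of 8 passed in both tools, beside 6.45% and 10.2%, and Esrra was again the 1 at an unadjusted p under 0.05. The share of all tested genes at that unadjusted cutoff was not counted, and the percentages given here are for adjusted p. Without replicate 1 the counts past the threshold were 0 of 8 in all 3 comparisons, beside 1.5%, 17.1% and 18.7%. Groups that did not overlap were seen for 1 of 8 (Esrra) in each of these comparisons, beside 21.7% and 22.9% of all tested genes, and for 0 of 8 between Zbtb11 KO and EtOH control, beside 7.21%. The median log2 fold changes of the 8 were 0.05 and -0.05, beside 0.00 over all tested genes in both.

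**Figure D4:**
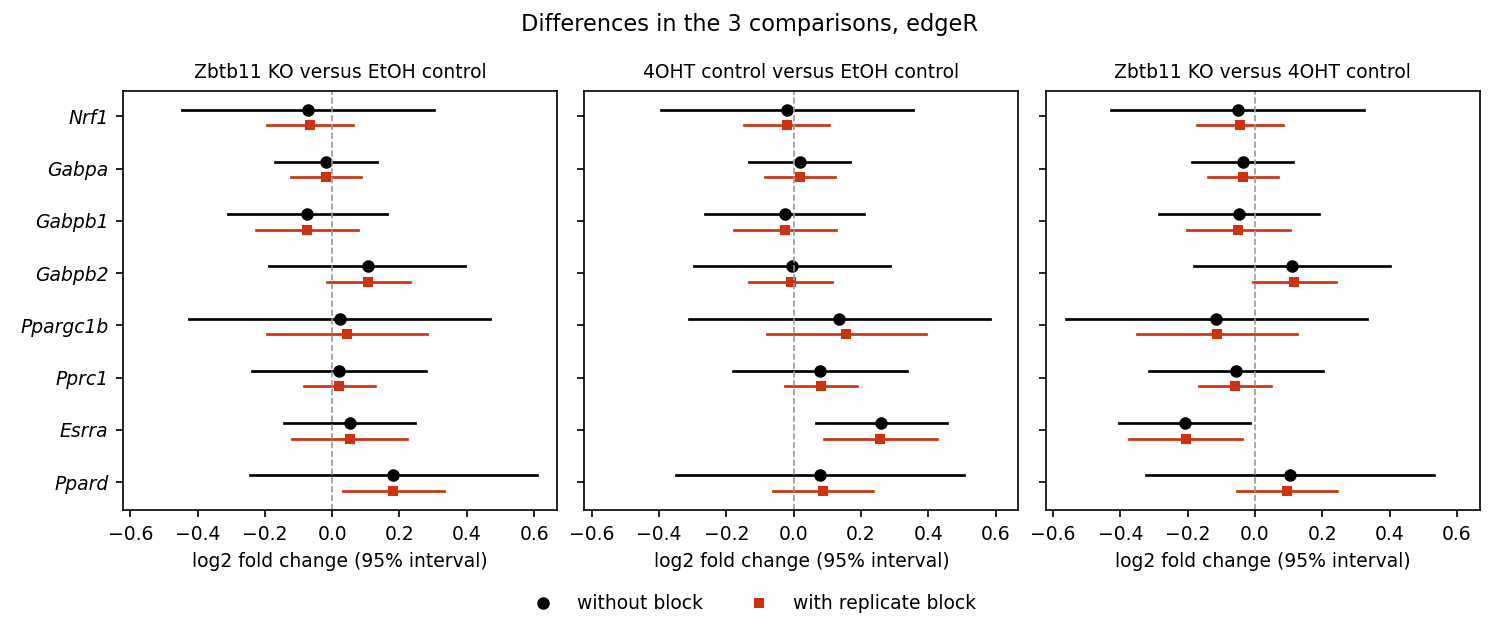
Log2 fold changes (x axis) of the 8 regulators (y axis) in the 3 comparisons, with 95% intervals from edgeR. Black circles are the fit by group and red squares the fit with the replicate number as a block. The intervals include 0 for all 8 genes between Zbtb11 KO and EtOH control in the fit by group, and for Esrra they exclude 0 in both comparisons with the 4OHT control.

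Related genes did not pass the threshold in Zbtb11 KO against EtOH control either. Of 8 related nuclear receptors and PGC-1 coactivators 3 were tested and 0 were called, with the largest differences for Rxra (0.13, SE 0.09) and Rxrb (0.09, SE 0.11), which encode partners of PPARδ. Esrrb, the ERR family member best known in ESCs, had 538 ± 50.2 CPM in EtOH control and differed by -0.06 (SE 0.13). Of 12 coregulators of NRF-1, ERR and PGC-1 proteins 12 were tested and 0 called, with Hcfc1 (-0.14, SE 0.17) and Creb1 (-0.13, SE 0.17) farthest from 0. Of 16 other ETS factors 14 were tested and 0 called, led by Elk3 (-0.23, SE 0.15) and Elk1 (-0.16, SE 0.10). The medians of these 3 lists were 0.09, -0.07 and 0.01.

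The same held for 18 genes classically described as targets of NRF-1 or GABP, such as Tfam and the cytochrome c oxidase subunits. All 18 were tested, 0 were called, and their median log2 fold change was -0.01, with Cox7b (-0.16, SE 0.09) and Cox8a (-0.12, SE 0.11) the farthest from 0. High-confidence promoter peaks were found at 11 of the 18, of which that of Tfam was Zbtb11-high (coverage 346.6), beside 28.1% and 5.69% of all tested genes. The paper, by contrast, states that Zbtb11 neither binds nor regulates such targets, naming cytochrome c, TFB and cytochrome c oxidase genes. Here Cycs and Tfb1m had no promoter peak, and Tfb2m had one (124.7). The peaks at cytochrome c oxidase genes ran from Cox6b1 (19.06) to Cox7a2 (290.1), beside a median peak of 71.3. Of the 12 coregulators, 7 had a promoter peak. Tfam, which encodes the main packaging and transcription factor of mitochondrial DNA, differed by 0.07 (SE 0.09). In the other 2 comparisons 0 genes of these 4 lists passed in edgeR without the block. With it, in fits that called 33.6% and 34.9% of all tested genes, 9 of 14 ETS factors, 3 of 18 target genes, 2 of 12 coregulators and 1 of 3 receptors passed between 4OHT control and EtOH control, and 7, 2, 4 and 1 between Zbtb11 KO and 4OHT control. DESeq2 called 3, 1, 0 and 0 in the first, beside 8.27%, and 4, 0, 1 and 0 in the second, beside 10.2%.

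The libraries were those of ESCs by their markers. The summed CPM of 6 ESC markers (Pou5f1, Nanog, Sox2, Zfp42, Klf4 and Tfcp2l1) was between 2745 and 3146 in all libraries. It was 19.7 to 42.5 for the 7 primed and lineage markers found in the files, of which 3 passed the filter, and 19.6 to 41.3 for 5 fibroblast markers. The farthest from 0 in Zbtb11 KO against EtOH control were Tfcp2l1 (-0.17, SE 0.22) and Nanog (-0.06, SE 0.11) among the ESC markers. Among the primed and lineage markers they were Gata6 (-0.23, SE 0.44) and Otx2 (-0.17, SE 0.24), and among the fibroblast markers Col1a1 (0.26, SE 0.23) and Thy1 (0.15, SE 0.23). Col1a2 was lower in 4OHT control than in EtOH control (-2.002, SE 0.26, adjusted p = 0.00506) and higher in Zbtb11 KO than in 4OHT control (1.96, SE 0.26, adjusted p = 0.0026). It stood at 2.23 to 3.77 CPM in the other groups and at 0.666 to 1.03 in the 4OHT control. With the replicate block, the fit in which Esrra passed, 5 of 6 ESC markers also passed between 4OHT control and EtOH control (3 higher, 2 lower), among them Klf4 (0.44) and Tfcp2l1 (-0.45). Otx2 (0.55) passed too, and of the fibroblast markers 2 were higher, Thy1 (0.61) and Pdgfrb (0.35), and 1 lower, Col1a2. The part of these markers in the results above was not tested, and fewer cells and less RNA per cell cannot be told apart in these bulk samples.

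For most of these genes replicate 1 stood further from the other replicates than the groups stood from each other. The 3 libraries of replicate 1 did not overlap with the other 6 for 6 of the 8 regulators, beside 35.8% of all tested genes. Nrf1 had 52.8 CPM on average in replicate 1 and 69.5 in the others, a ratio of 0.761, and Gabpb2 (0.831), Pprc1 (0.838) and Gabpa (0.951) were also lower. Ppard (1.35) and Ppargc1b (1.31) were higher in replicate 1. Gabpb1 (0.916) and Esrra (0.991) overlapped. For each of the 6 genes the log2 difference between replicate 1 and the others exceeded in size the 3 fitted differences between groups. These genes were picked by that same separation, so a large difference was built in and is no separate support. Among the genes that overlapped, the log2 difference was -0.13 for Gabpb1, beside -0.07 between Zbtb11 KO and EtOH control. For Esrra it was -0.01, beside 0.26 between 4OHT control and EtOH control. For Gabpa the highest library of replicate 1 (176.9) and the lowest of the others (177.6) nearly met.

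The genes with the most similar profiles were taken over all 9 libraries. By Pearson correlation of log2 CPM they were Prdx3 (0.996) and Fancm (0.986) for Nrf1, Hist1h2bl (0.959) and Hist1h2ag (0.955) for Gabpa, Trappc2 (0.949) and Mysm1 (0.940) for Gabpb1, and Dph5 (0.982) and Pin4 (0.980) for Gabpb2. They were Syt17 (0.978) and P2rx7 (0.971) for Ppargc1b, Epas1 (0.985) and Diras1 (0.981) for Pprc1, Abhd13 (0.987) and Slc25a4 (0.973) for Esrra, and Mpzl1 (0.991) and B2m (0.989) for Ppard. These are the 2 highest values per regulator among all tested protein-coding genes, over only 9 points that share the replicate split, and they describe likeness only. Among the regulators themselves Nrf1 and Gabpa correlated at 0.900 over 9 libraries and 0.824 over the 6 without replicate 1, whereas Nrf1 and Pprc1 went from 0.865 to -0.15.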

How the data were processed

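Counts of reads per gene were deposited by the authors for 9 directional RNA-seq libraries (STAR alignment, HTSeq counting, GENCODE vM1 identifiers, all 37310 matched). Totals on genes were 14301457 to 23876604 a library, and 0.790 to 0.905% of reads were ambiguous between genes. The authors aligned ChIP-seq reads to mm9 with Bowtie 1.1.2, called peaks with MACS2 and computed a normalised coverage signal over consensus peaks with DiffBind, which they deposited with 3 peak lists (Zbtb11 antibody, FLAG-Zbtb11 and FLAG control), each over all replicates.

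Counts were tested with edgeR 4.0.16 (TMM, quasi-likelihood test, all 9 libraries, adjusted p under 0.05), with DESeq2 1.42.0 as an alternative. Steps were tested on simulated data. The 8 genes, gene lists and tests were chosen with earlier results of these data known. Genes named besides the 8 are those of each list past the threshold or the 2 farthest from 0, the genes sharing a promoter and the 2 most alike per regulator. Tfam, Esrrb, Klf4, Pdgfrb, Cycs, Tfb1m, Tfb2m, Cox6b1 and Cox7a2 were named after their values were seen.

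Libraries of the same replicate number deviated together (correlations of 0.43 to 0.82 for every pair, against at most 0.526 between numbers), a pairing taken from the numbers in the labels. The highest values were those of replicate 1. EtOH control replicate 2 correlated at 0.43 with 4OHT control replicate 2 and at 0.526 with 4OHT control replicate 3. For Zbtb11 KO replicate 2 the values were 0.448 and 0.463, so the number did not always mark the closest library. The study calls replicates biological; the labels do not say what separates them, so p-values measure the spread between these libraries. The 7 motifs were searched on both strands. They were CCGGAAG for GABP, GGAAGTG for ETS factors and CGGAA as their core, which overlap each other, the palindromic NRF-1 site and TGCGCA, a partial NRF-1 site that shares GCGCA with it, AAGGTCA for ERR proteins, and CTACAATTC.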

Additional observations from a re-analysis of the deposited data

How the results depend on the processing

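Each of the 24 log2 fold changes (8 genes in 3 comparisons) was computed under 11 alternatives, and 252 of the 264 values kept their direction and their side of the threshold. The replicate block gave a call to 1 of 8 regulators in 4OHT control against EtOH control (Esrra, 0.26, adjusted p = 0.0168, range over its alternatives 0.0168 to 0.788), and changed no other call of the 8. It raised the calls over all tested genes from 129 to 323, from 583 to 4816 and from 925 to 5010 in the 3 comparisons. With library sizes in place of TMM, Gabpa went to 0.02 in Zbtb11 KO against EtOH control and Gabpb2 to 0.002 in 4OHT control against EtOH control. Leaving out replicates, with or without the block, reversed values near 0: Ppargc1b in Zbtb11 KO against EtOH control ranged from -0.076 to 0.207 (0.208 with the block), Nrf1 (-0.078 to 0.028), Gabpb1 (-0.123 to 0.098) and Gabpb2 (-0.057 to 0.047) in 4OHT control against EtOH control, and Nrf1 (-0.114 to 0.005) and Gabpb1 (-0.133 to 0.012) in Zbtb11 KO against 4OHT control. The cause was not tested. With the block and without replicate 1, Gabpb1 and Gabpb2 stood at 0.098 and 0.046 in 4OHT control against EtOH control. Over all tested genes the calls in Zbtb11 KO against EtOH control were 212 without replicate 1, 13 without replicate 2 and 21 without replicate 3. In 4OHT control against EtOH control they were 2420, 13 and 24, and in Zbtb11 KO against 4OHT control 2645, 82 and 114. DESeq2 called 1187 and 1469 genes in the last 2 comparisons, and edgeR 171 and 570 with the 2 groups compared alone. None of the 8 regulators was called in any of these, and with FLAG control peaks 0 of 8 promoters held a peak. With the longest transcript as length, levels per kilobase in EtOH control were 16.1 for Nrf1, 36.1 for Gabpa, 10.9 for Gabpb1, 9.61 for Gabpb2, 59.0 for Pprc1, 7.41 for Esrra and 7.94 for Ppard. The ratio of Gabpa to Gabpb1 plus Gabpb2 fell from 2.83 to 1.76 in EtOH control with that length, an alternative chosen after seeing the data. Ppargc1b had the fewest reads of the 8 (173 to 244 a library) and the widest intervals.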
